A study of Mus musculus with 30 samples.

Results

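The 9 genes described here encode the pore-forming subunits of the AMPA and kainate receptors, the ion channels that carry most fast glutamate signalling between neurons. Gria1, Gria2, Gria3 and Gria4 encode AMPA receptor subunits, and Grik1, Grik2, Grik3, Grik4 and Grik5 encode kainate receptor subunits. The members were taken by name: in each of the deposited tables, probe sets with a single gene symbol were kept, and the one with the highest mean signal stood for each gene. All 9 members were measured at both stages, among 18194 genes at E14.5 and 19938 genes at P0.5. The P0.5 array reads each member with 1 probe set, and the E14.5 array reads the 9 members with 18.

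The study asked what the loss of Tbr1, a T-box transcription factor of early-born cortical neurons such as those of layer 6, does to the identity of neurons in the developing mouse cortex. Total RNA was measured on 30 arrays. At E14.5 there were 3 arrays of Tbr1 homozygous null (KO) neocortex and 3 arrays of wild-type (WT) neocortex. At P0.5 there were 4 KO and 4 WT arrays each of frontal, parietal and occipital brain tissue. All groups share the CD1 background, and null animals came from crosses between heterozygous parents. The null allele was described with no driver that confines it to a cell type, and the regions are dissected tissue with many cell types. The labels give neither sex nor whether an array is 1 animal, so the p-values measure only the spread between these samples, which may in part be technical.

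An AMPA receptor is assembled from Gria subunits, and RNA editing of the Gria2 transcript makes the channels that contain it nearly impermeable to calcium. Grik1, Grik2 and Grik3 subunits can form kainate channels on their own, while Grik4 and Grik5 subunits need one of them as a partner. Kainate receptors act at synapses on both the sending and the receiving side and are also present on young axons. Expression of both families begins in the cortex before most synapses have formed.

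At P0.5 the targeted gene, Tbr1, had a log2 difference of -0.68 between KO and WT when the regions were averaged (limma adjusted p = 1.17e-05), and the genotypes overlapped in none of the regions. At E14.5 the Tbr1 difference was -1.29 (adjusted p = 0.85). Sex was not matched at P0.5. The mean log2 signal of 3 Y-linked genes (Eif2s3y, Uty and Kdm5d) was under 7 on 4 of 4 frontal KO arrays and 0 of 4 frontal WT arrays, on 2 of 4 parietal KO and 1 of 4 parietal WT arrays, and on 1 of 4 occipital KO and 0 of 4 occipital WT arrays. In frontal tissue sex and genotype therefore cannot be told apart. Of the 8 sets of 3 same-numbered arrays, 5 differed by over 3 log2 units in this mean between regions, so a number did not stand for 1 animal of 1 sex in these sets. Xist, an X-linked RNA of female cells, was at 5.65 to 6.39 on frontal WT and 11.96 to 12.20 on frontal KO arrays. On occipital KO 2 and 4 it lay between, at 7.75 and 8.77. Parietal KO 1 and 3 (8.55 and 7.88) and parietal WT 3 (8.65) did as well. All of these arrays had a high Y-linked level, which may therefore not capture sex in full. The reason was not tested. The frontal WT array 4 and the parietal KO array 2 deviated most from their groups (SD of the deviations over all genes 0.216 and 0.205, against 0.0894 to 0.165 for the other P0.5 arrays), and counts are also given without both.

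Cell type markers moved with genotype in the same arrays. Averaged over the P0.5 regions, layer 6 markers were at 8.82 to 8.93 in KO, against 9.28 to 9.51 in WT, and 6 of 8 were called lower. Layer 5 markers were at 10.03 to 10.09 in KO, against 9.62 to 9.82 in WT, and 5 of 7 were called higher. Astrocyte markers were at 8.62 to 8.87 in KO and 8.13 to 8.56 in WT, with 5 of 7 called higher, and radial glia markers at 9.59 to 9.73 in KO and 9.41 to 9.62 in WT, with 5 of 8 called higher. Cajal-Retzius markers were at 7.13 to 7.23 in KO and 7.41 to 7.59 in WT, with 4 of 8 called lower. GABAergic interneuron markers overlapped, at 8.96 to 9.08 in KO and 8.91 to 9.01 in WT, with 1 of 10 called higher. In whole tissue, fewer cells of a type and less RNA per cell cannot be told apart, and the part of these shifts in the results below was not tested.

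The upstream sequences of 3 members are shown, those with a call and an available sequence: Grik3 was lower in KO, Gria4 was higher in KO, and Grik2 differed between regions. Gria1 and Grik1 were also called, between frontal and occipital WT tissue, but no upstream sequence was available for them. Tbr1 belongs to the T-box family, whose members bind the half-site AGGTGTGA, so this motif was searched on both strands in the 250 bases before each gene's start. RefSeq sequences on build GRCm38.p6 were available for 6 of the 9 members (Gria2, Gria4, Grik2, Grik3, Grik4 and Grik5). None of the 6 held AGGTGTGA, which 1.12% of the 32851 promoter windows hold. The GC box GGGCGG, a common element of promoters, was present on either strand in 3 of the 6 (Grik3, Grik4 and Grik5) and in 32.7% of all windows. Capitals mark GC boxes in the lines that follow, each read 5′ to 3′ on the strand of the gene.
Grik3 (chr4:125490446-125490695, plus strand): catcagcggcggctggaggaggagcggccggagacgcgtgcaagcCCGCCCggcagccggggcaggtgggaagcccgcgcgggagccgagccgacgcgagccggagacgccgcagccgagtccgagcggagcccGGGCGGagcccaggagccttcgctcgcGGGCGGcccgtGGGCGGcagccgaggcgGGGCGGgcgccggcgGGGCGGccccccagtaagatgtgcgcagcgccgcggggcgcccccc
Gria4 (chr9:4796235-4796484, minus strand): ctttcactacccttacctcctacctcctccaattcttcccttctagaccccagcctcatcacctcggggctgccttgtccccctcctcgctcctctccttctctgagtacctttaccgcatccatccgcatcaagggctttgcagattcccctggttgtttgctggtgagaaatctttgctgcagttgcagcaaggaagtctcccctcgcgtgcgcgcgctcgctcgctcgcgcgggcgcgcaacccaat
Grik2 (chr10:49788755-49789004, minus strand): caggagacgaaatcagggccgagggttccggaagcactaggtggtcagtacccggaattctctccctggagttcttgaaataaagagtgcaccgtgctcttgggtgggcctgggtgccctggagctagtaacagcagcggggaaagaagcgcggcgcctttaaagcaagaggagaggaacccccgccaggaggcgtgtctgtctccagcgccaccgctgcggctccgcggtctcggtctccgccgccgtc
The Grik3 window holds 6 matches to the GC box, which may overlap, and 42 CpG sites, with 82.0% G and C. Those of Gria4 and Grik2 hold no match and 16 and 20 CpG sites, with 58.8% and 62.8% G and C. The letters describe these windows alone, and no binding was measured.

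The main comparison set KO against WT over the 3 P0.5 regions, each value being the mean of the same-numbered arrays of a genotype, so that 4 KO stood against 4 WT values. Since 5 of the 8 sets differed in Y-linked level between regions, such a value does not stand for 1 animal. The values may thus not be independent. Of the 9 members 2 passed the test, Grik3 (lower) and Gria4 (higher). Over all genes 7.46% passed in either direction, 4.71% higher and 2.75% lower. The median difference of the 9 members was 0.10 on the log2 scale, beside -0.01 for all genes. The calls went in both directions, 1 up and 1 down.

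Grik3, a kainate receptor subunit with low sensitivity to glutamate, was the member with the smallest p in this comparison. Its log2 signal, averaged over the regions, was 9.57, 9.63, 9.76 and 9.59 in KO, against 9.92, 9.96, 9.98 and 9.86 in WT. Every KO value lay below every WT value. The difference was -0.29 (SE 0.0498, limma adjusted p = 0.00171), which is 1.23-fold lower in KO, and it stayed called when any one set of arrays was left out (adjusted p at most 0.0108). Adding the Y-linked level to a fit of the 24 single arrays gave -0.23, which was not called (adjusted p = 0.138), whereas that fit called Grik3 when the term was absent (adjusted p = 0.00235).

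By region, the Grik3 signal in occipital tissue was 9.57, 9.64, 9.50 and 9.56 in KO, against 9.74, 10.002, 10.02 and 10.15 in WT. The groups did not overlap, and the KO arrays were the more alike. The occipital difference of -0.41 (SE 0.109) missed the threshold (adjusted p = 0.0608), and it passed without the 2 most deviant arrays (adjusted p = 0.0119). Leaving these out was a choice made after seeing the data. Neither of them is occipital, so the occipital difference itself stayed the same and only the fit around it changed. In frontal tissue the values were 9.50, 9.74, 9.74 and 9.51 in KO, against 9.98, 10.04, 10.13 and 9.58 in WT. A single low WT array, number 4, lay among the KO arrays there. The frontal difference was -0.31 (adjusted p = 0.0747), and -0.43 without the 2 most deviant arrays (adjusted p = 0.00662), of which this WT array is one. Parietal Grik3 was at 9.63, 9.51, 10.03 and 9.71 in KO and at 10.04, 9.84, 9.78 and 9.85 in WT, a difference of -0.16 (adjusted p = 0.808) with overlapping groups.

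**Figure D1:**
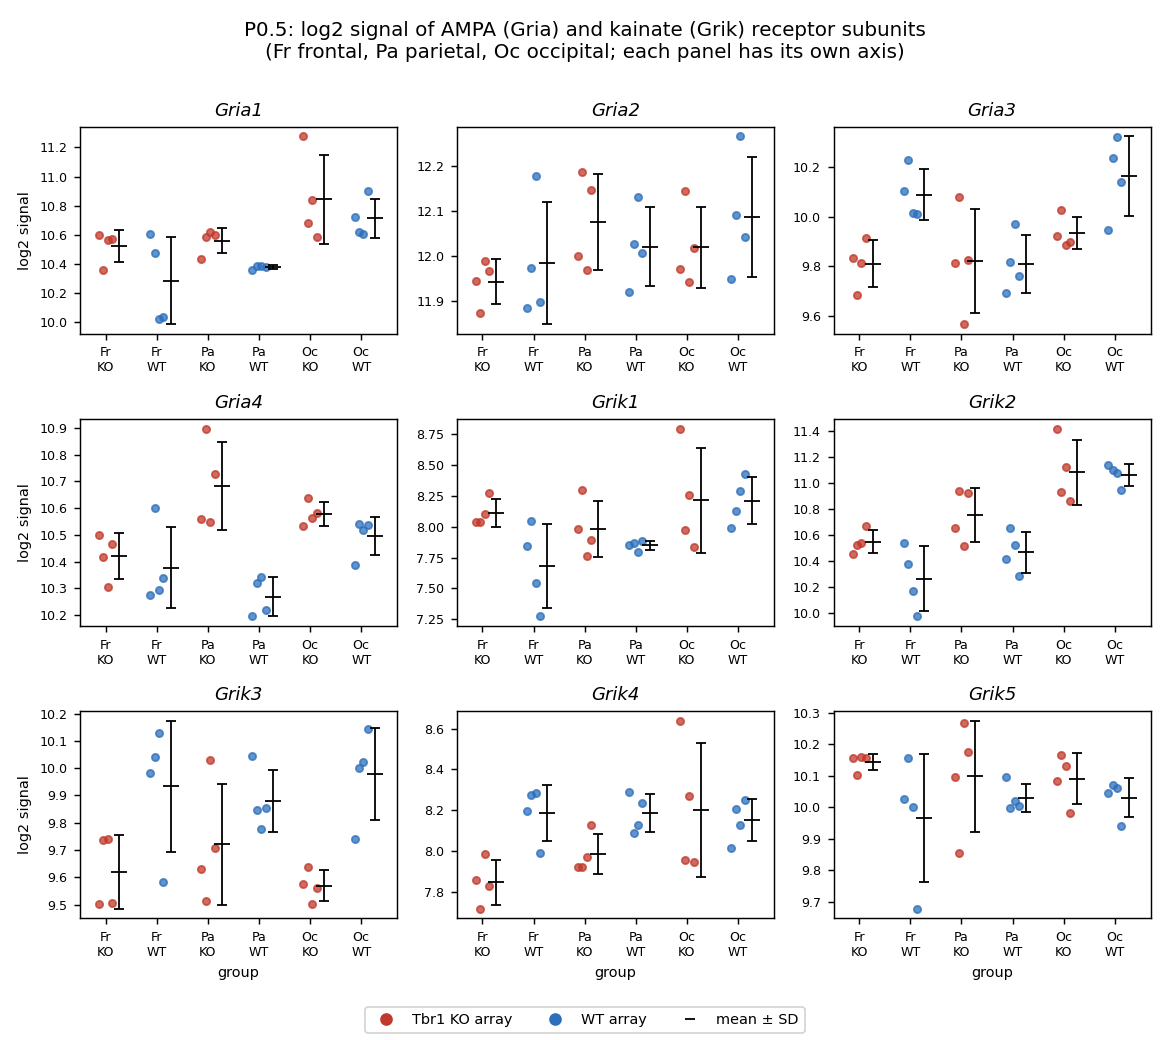
Log2 signal of the 9 subunit genes at P0.5, 1 panel per gene with its own axis. Points are single arrays (red KO, blue WT) of frontal (Fr), parietal (Pa) and occipital (Oc) tissue, and bars give mean ± SD of 4 arrays. The occipital KO arrays of Grik3 (9.50 to 9.64) all lie below the WT arrays, the parietal KO arrays of Gria4 (10.55 to 10.90) all lie above the WT arrays, and Grik2 has its highest means in occipital tissue in both genotypes.

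Gria4, an AMPA receptor subunit best known in interneurons and in early development, was the member that rose in KO parietal tissue. Its parietal signal was 10.56, 10.90, 10.55 and 10.73 in KO, against 10.20, 10.32, 10.34 and 10.22 in WT. The lowest KO array lay above the highest WT array. The difference was 0.41 (SE 0.0764, limma adjusted p = 0.00205), a 1.33-fold rise, and it was called in all 8 fits that left out 1 of these arrays, without the 2 most deviant arrays, and after adjusting for the Y-linked level (0.38, adjusted p = 0.00651). In this region 1 of 9 members was called, against 1.81% of all genes. In the parietal arrays layer 6 markers were at 8.83 to 9.03 in KO and 9.40 to 9.48 in WT (5 of 8 called lower), layer 5 markers at 10.10 to 10.19 in KO and 9.63 to 9.74 in WT (4 of 7 called higher), and GABAergic interneuron markers overlapped (0 of 10 called). Astrocyte markers did not overlap, at 8.53 to 8.76 in KO and 8.18 to 8.50 in WT (0 of 7 called). Nor did Cajal-Retzius markers, at 7.07 to 7.33 in KO and 7.39 to 7.55 in WT (1 of 8 called lower). The part of these lists in the Gria4 call was not tested.

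In frontal tissue Gria4 was at 10.50, 10.42, 10.30 and 10.47 in KO, against 10.27, 10.60, 10.30 and 10.34 in WT. Occipital values were 10.53, 10.64, 10.56 and 10.58 in KO, against 10.39, 10.54, 10.52 and 10.54 in WT. Both pairs of groups overlapped, and neither difference was called (0.04, 95% interval -0.11 to 0.20, and 0.08, 95% interval -0.07 to 0.24). Whether the genotype difference itself varied between regions was tested as an interaction, which for Gria4 gave -0.37 for frontal against parietal (adjusted p = 0.427) and 0.33 for parietal against occipital (adjusted p = 0.875). The rise is thus not shown to differ between regions. Over the regions Gria4 was 0.18 higher in KO (SE 0.0518, adjusted p = 0.0492), with values of 10.53, 10.65, 10.47 and 10.59 in KO against 10.29, 10.49, 10.39 and 10.36 in WT. That call was close to the threshold: it was lost in 6 of 8 fits that left out 1 set of same-numbered arrays (highest adjusted p = 0.148), without KO 1, 2 or 4 or WT 1, 3 or 4. In the fit of 24 single arrays it was called (adjusted p = 0.00743), and after adjusting that fit for the Y-linked level it was not (0.12, adjusted p = 0.346).

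**Figure D2:**
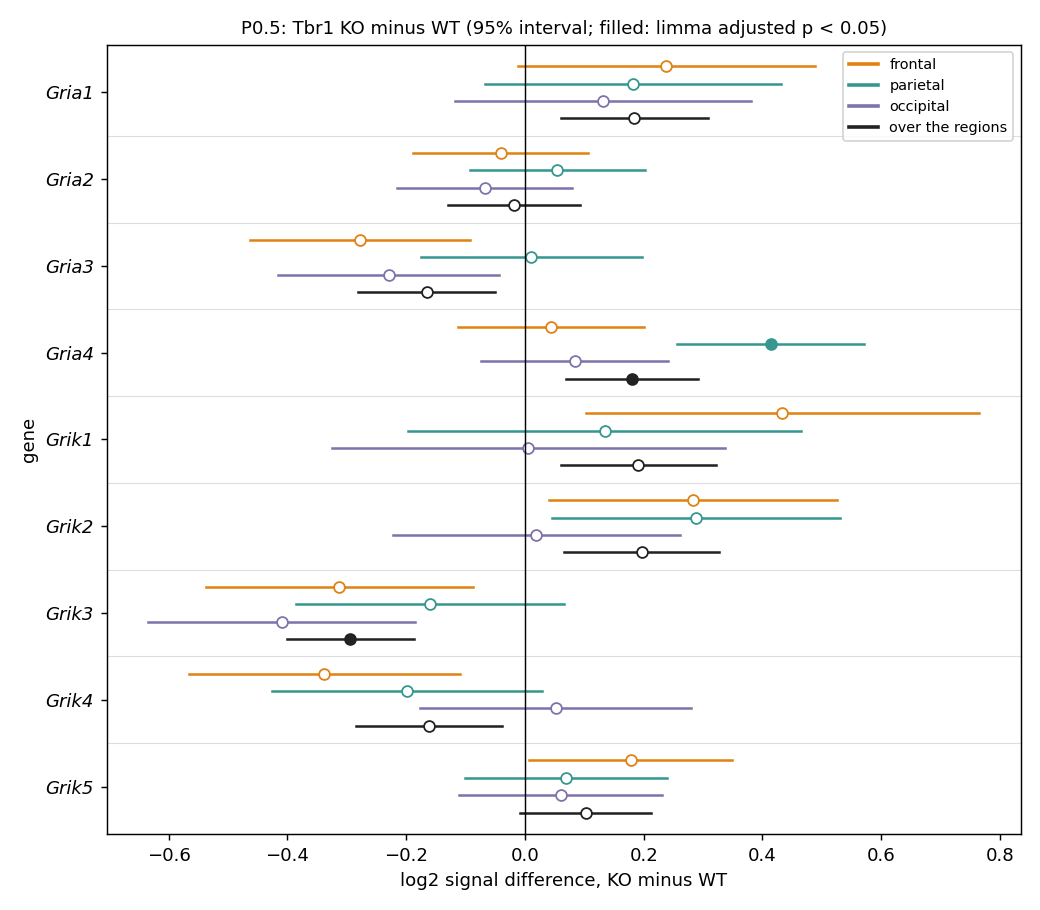
Difference in log2 signal, KO minus WT, on the x axis, for each subunit gene down the page, in the 3 P0.5 regions and over them. Lines are 95% intervals of the limma fit, filled points passed an adjusted p of 0.05, and open points did not. Filled points are Gria4 in parietal tissue (0.41), Gria4 over the regions (0.18) and Grik3 over the regions (-0.29).

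The other AMPA receptor subunits did not pass the test over the regions. Gria1, the subunit most studied for its delivery to synapses, was at 10.77, 10.54, 10.68 and 10.59 in KO and at 10.56, 10.50, 10.34 and 10.44 in WT. Only the highest WT value reached the KO range. The difference was 0.18 (SE 0.0577, adjusted p = 0.0743), and it was positive in the frontal (0.24), parietal (0.18) and occipital (0.13) fits, none of them called. In parietal tissue the Gria1 groups did not overlap, with 10.44, 10.59, 10.62 and 10.60 in KO against 10.36, 10.39, 10.38 and 10.38 in WT.

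Gria2, the subunit that limits calcium entry, gave a difference over the regions near 0 (-0.02, 95% interval -0.13 to 0.09, adjusted p = 0.892). Its regional means lay between 11.94 and 12.09 in all 6 groups. Gria3, whose gene is on the X chromosome, was at 9.86, 9.93, 9.76 and 9.88 in KO and at 9.91, 10.10, 10.10 and 9.97 in WT. A single WT value lay inside the KO range. The Gria3 difference was -0.17 (adjusted p = 0.0869) and was a call when the 24 single arrays were fitted in place of their means (adjusted p = 0.0433, or 0.0451 with the number as a block), also without the 2 most deviant arrays (-0.20, adjusted p = 0.00625). In frontal tissue, where all KO arrays and no WT array had a low Y-linked level, Gria3 did not overlap (9.83, 9.69, 9.81 and 9.91 in KO against 10.10, 10.23, 10.01 and 10.01 in WT; difference -0.28, adjusted p = 0.0577).

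Among the remaining kainate receptor subunits, Grik2, the most widely expressed of the family in the forebrain, was at 10.84, 10.80, 10.73 and 10.82 in KO, against 10.70, 10.71, 10.59 and 10.40 in WT. No WT value reached the lowest KO value. The difference of 0.20 (SE 0.0608) did not pass (adjusted p = 0.069). Grik4, one of the subunits that need a partner, was at 8.14, 7.87, 8.08 and 7.97 in KO, against 8.17, 8.19, 8.18 and 8.16 in WT. The WT values were nearly equal and the KO values all lay below them. Its difference of -0.16 did not pass either (adjusted p = 0.12).

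Grik1, a subunit known for its role on interneurons and sensory neurons, was 0.19 higher over the regions (adjusted p = 0.0796), with an occipital difference of 0.01 and a frontal difference of 0.43 (adjusted p = 0.0915). Grik5, the other subunit that needs a partner, gave 0.10 (95% interval -0.01 to 0.21, adjusted p = 0.305). Over the regions 3 of 9 members (Grik2, Grik3 and Grik4) had no overlap between KO and WT, against 12.5% of all genes.

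In frontal tissue 0 of 9 members were called in the limma fit, against 7.52% of all genes, while 6 had an unadjusted p under 0.05, against 27.5% of all genes. Gria3 and Grik4 did not overlap there, 2 of 9 beside 12.9% of all genes. The frontal Grik4 signal was 7.86, 7.72, 7.99 and 7.83 in KO, against 8.20, 8.27, 8.28 and 7.99 in WT, a difference of -0.34 (adjusted p = 0.0597). The highest KO array and the lowest WT array nearly met. Without the 2 most deviant arrays Gria3, Grik3 and Grik4 were called in frontal tissue, where sex and genotype cannot be told apart.

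In occipital tissue 0 of 9 members were called, against 1.34% of all genes, with Gria3 and Grik3 at an unadjusted p under 0.05 (10.8% of all genes). Without the 2 most deviant arrays, neither of them occipital, or with only the occipital arrays in the fit, Grik3 was called. Grik3 was also the only member without overlap there, 1 of 9 beside 6.26% of all genes. In parietal tissue Gria1 and Gria4 did not overlap, 2 of 9 beside 7.41%.

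At E14.5 none of the 9 members was called in the limma fit, where 0% of all genes passed. Xist was at 9.58, 10.17 and 5.07 in KO, against 5.01, 10.76 and 5.41 in WT. Sex was thus not matched at this stage either, and its part in the values was not tested. One member, Gria2, had an unadjusted p under 0.05, against 5.76% of all genes. Its log2 signal was 7.50, 7.01 and 7.86 in KO, against 9.29, 8.14 and 8.31 in WT. The groups did not overlap, and WT 1 stood above the other WT arrays. The difference was -1.12 (SE 0.353, 95% interval -1.94 to -0.30, adjusted p = 0.85), which is 2.17-fold lower in KO, and the other 2 Gria2 probe sets gave -1.13 and -1.43.

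Gria1 at E14.5 was at 5.61, 4.18 and 6.005 in KO, against 6.61, 5.47 and 6.73 in WT. KO 2 was the lowest of the 6 arrays, and the other KO arrays lay within the WT range. The difference was -1.01 (SE 0.515, adjusted p = 0.887), and the second probe set gave -1.14. Grik3 was at 6.23, 4.37 and 6.78 in KO, against 6.76, 5.89 and 7.18 in WT, again with KO 2 lowest. Its probe sets disagree, since the one used gave -0.81 (adjusted p = 0.958) and the second gave -0.05. In KO 2 the mean of 10 GABAergic interneuron markers was also the lowest, at 5.99, against 7.68 and 7.83 in the other KO arrays and 7.23 to 8.10 in WT. KO 2 was also lowest for layer 6 markers, at 6.78, against 6.95 and 7.11 in the other KO arrays and 7.07 to 7.60 in WT, and highest for radial glia markers, at 9.64, against 8.78 and 9.31 in the other KO arrays and 9.14 to 9.32 in WT. Thalamus markers were at 6.64 to 7.95 in KO and 6.18 to 6.50 in WT, and astrocyte markers at 6.98 to 7.22 in KO and 6.81 to 6.94 in WT, with no overlap in either list. None of these markers was called, and their part in the E14.5 values was not tested. Over all genes KO 1, not KO 2, deviated most from its group. The SD of the deviations was 0.385 in KO 1, 0.298 in KO 2 and 0.233 in KO 3, against 0.160 to 0.188 in WT. The KO arrays of this stage were thus less alike than the WT arrays.

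At this stage same-numbered KO and WT arrays deviated together (correlations 0.125 to 0.445), so the number was also fitted as a block. With the block the Gria1 and Gria2 differences kept their sizes and had adjusted p = 0.568 each, and 0 members were called. Grik4 was the other member without overlap, at 5.39, 4.91 and 4.84 in KO against 4.79, 4.79 and 4.77 in WT (difference 0.26, adjusted p = 0.907), which makes 2 of 9 beside 11.2% of all genes. Gria4 gave -0.32 with the probe set used and 0.08 and -0.03 with the others. With the probe sets used, the remaining members (Gria3, Grik1, Grik2 and Grik5) lay between -0.03 and 0.04. The second probe sets of Gria3, Grik1 and Grik2 gave -0.29, -0.14 and -0.26, so for Gria3 and Grik2 the values near 0 hold only for the probe sets with the higher mean. The median signal of all probe sets on these arrays was 5.12 to 5.15. Group means of Gria3, Grik1 and Grik2 (4.26 to 4.55) lay below it, and those of Gria4 (5.04 and 5.36) lay near it. All Grik4 WT arrays and Grik4 KO 2 and 3 also lay below it, and only Grik4 KO 1 (5.39) lay above it. These low signals may be close to background, which was not tested.

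**Figure D3:**
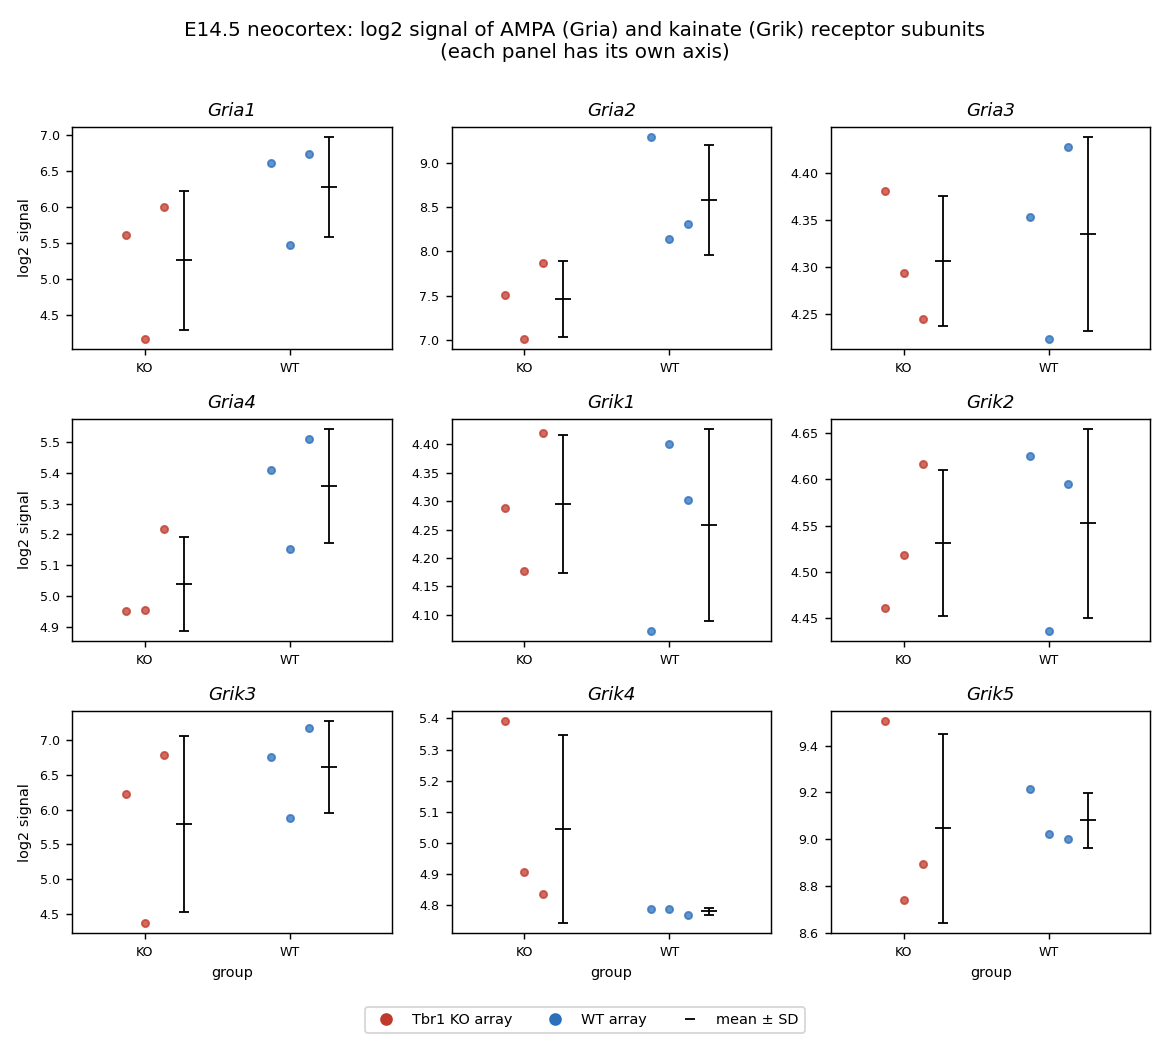
Log2 signal of the 9 subunit genes in E14.5 neocortex, 1 panel per gene with its own axis. Points are single arrays (red KO, blue WT) and bars give mean ± SD of 3 arrays. Gria2 and Grik4 are the 2 genes whose KO and WT arrays do not overlap. The Grik4 WT arrays and Grik4 KO arrays 2 and 3 (4.91 and 4.84) lie below the median signal of all probe sets.

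The regional comparison within WT tissue asked how the subunits differ between frontal and occipital cortex in the normal newborn. Of the 9 members 3 were lower in frontal tissue (Gria1, Grik1 and Grik2) and none was higher, against 3.77% of all genes lower and 6.03% in either direction. The median of the members was -0.10, beside 0.03 for all genes. Grik2 was the steadiest of the calls. Gria1 and Grik2 had no overlap, 2 of 9 beside 12.6% of all genes. Cell type markers differed between the same arrays. The mean of 6 hippocampus markers was 7.93 to 8.14 in frontal and 8.28 to 8.40 in occipital WT tissue, without overlap, and 1 of 6 was called lower in frontal tissue. Radial glia markers were at 8.99 to 9.62 in frontal and 9.55 to 9.74 in occipital WT tissue, with 3 of 8 called lower, and astrocyte markers at 7.87 to 8.58 and 8.33 to 8.78, with 1 of 7 called lower. Upper layer markers ran the other way, at 9.83 to 10.19 in frontal and 9.41 to 9.90 in occipital WT tissue, with 1 of 7 called higher. Their part in the Gria1, Grik1 and Grik2 calls was not tested.

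Grik2 in WT was at 10.54, 10.38, 10.17 and 9.97 in frontal tissue, against 11.14, 11.10, 11.08 and 10.95 in occipital tissue. Every frontal array lay below every occipital array. The difference was -0.80 (SE 0.118, limma adjusted p = 1.16e-04), which is 1.74-fold lower in frontal tissue, and it was called in all 8 fits that left out 1 array (-0.89 to -0.70). All 8 of these arrays had a high Y-linked level. In parietal WT tissue Grik2 was at 10.42, 10.65, 10.52 and 10.29, which was 0.60 lower than in occipital tissue (adjusted p = 0.013). Parietal and occipital WT arrays also lay apart in upper layer markers (10.03 to 10.11 in parietal and 9.41 to 9.90 in occipital tissue, 2 of 7 called higher). GABAergic interneuron markers lay apart as well, narrowly, at 9.042 to 9.127 in parietal and 8.641 to 9.037 in occipital tissue. So did layer 6 markers, at 9.395 to 9.475 and 9.142 to 9.394. The part of these lists in the Grik2 call was not tested. With the number as a block over all P0.5 arrays the adjusted p was 0.0141. Same-numbered parietal and occipital WT arrays deviated together (correlations 0.124 to 0.276), but frontal and parietal WT arrays did not throughout (lowest -0.171). The Y-linked mean was 5.76 on parietal WT 2 and 9.44 on occipital WT 2, so this pair was not 1 animal. The block is therefore given only as an alternative. Without parietal WT 4, and with no block, the adjusted p was 0.0788.

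In KO tissue Grik2 kept the same order, with 10.46, 10.53, 10.54 and 10.67 in frontal tissue against 11.42, 10.93, 11.13 and 10.86 in occipital tissue. The ranges did not meet. The KO difference was -0.54 (SE 0.118, adjusted p = 0.00784), called in all 8 fits that left out 1 array. Sex was unbalanced here, since 4 of 4 frontal and 1 of 4 occipital KO arrays had a low Y-linked level, and with that level as a covariate the difference was -0.71 (adjusted p = 0.00656). Hippocampus markers were at 8.07 to 8.27 in frontal and 8.31 to 8.87 in occipital KO tissue (1 of 6 called lower), radial glia markers at 9.26 to 9.70 and 9.71 to 9.97 (1 of 8 lower), and astrocyte markers at 8.30 to 8.89 and 8.90 to 9.07 (1 of 7 lower). Upper layer markers were at 9.92 to 10.08 in frontal and 9.30 to 9.73 in occipital KO tissue (3 of 7 called higher). None of these 4 lists overlapped between the KO regions, and their part in the Grik2 call was not tested. Grik2 was the only member called for frontal against occipital in KO, 1 of 9 beside 3.22% of all genes, and Gria4 and Grik2 were without overlap, 2 of 9 beside 10.1%. The frontal to occipital difference of Grik2 was 0.26 less negative in KO than in WT, and this change did not pass the interaction test (95% interval -0.08 to 0.61, adjusted p = 0.348).

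The group means of Grik2 ran in the order occipital KO (11.09 ± 0.25), occipital WT (11.07 ± 0.08), parietal KO (10.76 ± 0.21), frontal KO (10.55 ± 0.09), parietal WT (10.47 ± 0.16) and frontal WT (10.27 ± 0.25; SD, n = 4 each). Only the step from occipital WT to parietal KO was larger than the larger SD of the groups on either side. For Grik3 no step between neighbouring groups exceeded that SD, and the 3 WT groups (9.88 to 9.98) stood above the 3 KO groups (9.57 to 9.72). Gria4 ran from parietal KO (10.68 ± 0.16) at the top to parietal WT (10.27 ± 0.07) at the bottom, with 1 step beyond the SD, between occipital KO and occipital WT.

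Gria1 in WT was at 10.61, 10.48, 10.02 and 10.04 in frontal tissue, against 10.72, 10.62, 10.61 and 10.90 in occipital tissue. Frontal WT 3 and 4 were clearly lower than frontal WT 1 and 2, which nearly touched the occipital range. The difference was -0.43 (SE 0.121, adjusted p = 0.0376), and it was called in 2 of the 8 fits that left out 1 array. Those without frontal WT 3 or 4, or without any one occipital WT array, lost it (highest adjusted p = 0.156). In KO the Gria1 difference was -0.32 (adjusted p = 0.186).

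Grik1 in WT was at 7.85, 8.05, 7.55 and 7.27 in frontal tissue, against 7.99, 8.12, 8.29 and 8.43 in occipital tissue. The ranges overlapped, and frontal WT 3 and 4 were again the lowest arrays. The difference was -0.53 (SE 0.161, adjusted p = 0.0494). It was called in 3 of the 8 fits that left out 1 array and lost in those without frontal WT 3 or 4 or occipital WT 2, 3 or 4 (highest adjusted p = 0.213), and with the number as a block (adjusted p = 0.0696). Without the 2 most deviant arrays only Grik2 was called between frontal and occipital WT tissue, and Gria1 and Grik1 had adjusted p = 0.132 and 0.155. In KO the Grik1 difference was -0.10 (adjusted p = 0.837), and the interaction of 0.43 was not called (adjusted p = 0.278).

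**Figure D4:**
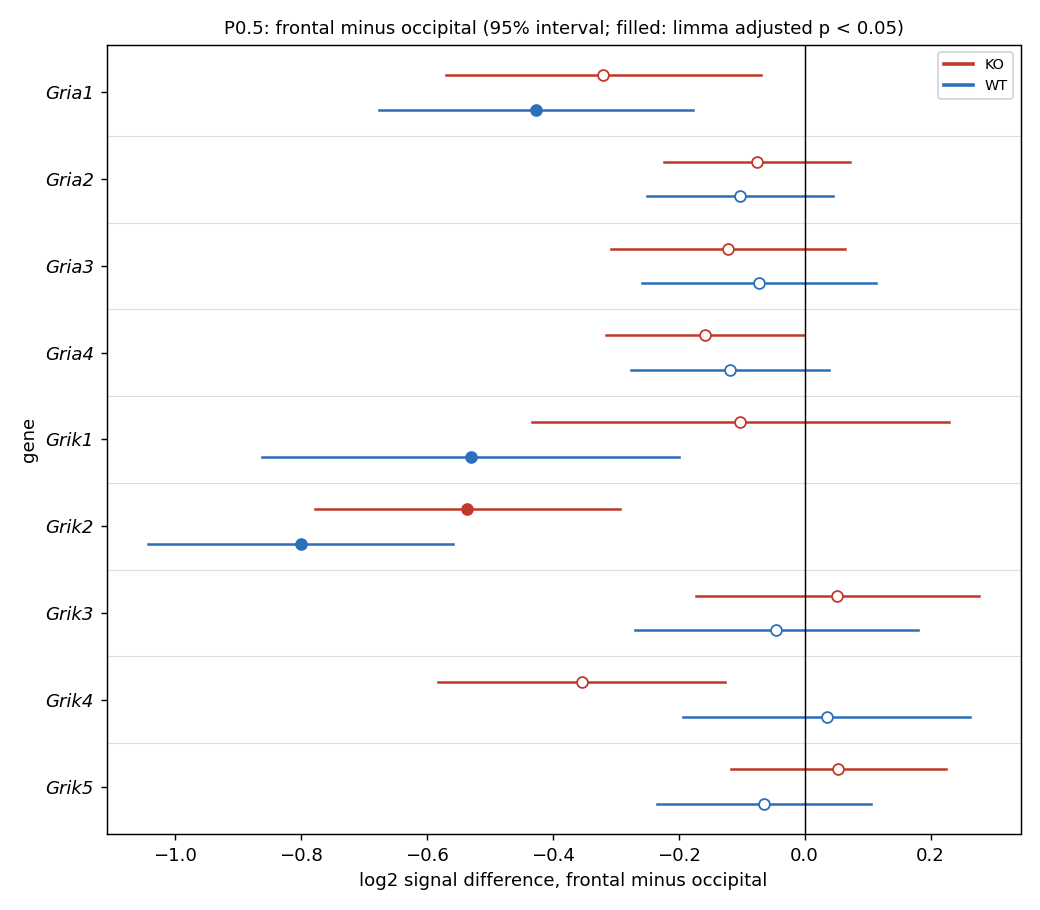
Difference in log2 signal, frontal minus occipital, for each subunit gene in KO (red) and WT (blue). Lines are 95% intervals of the limma fit and filled points passed an adjusted p of 0.05. Grik2 is filled in both genotypes (-0.54 in KO and -0.80 in WT), while Gria1 and Grik1 are filled in WT alone, a contrast between genotypes that the interaction test did not call.

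The other regional comparisons called no further member. For frontal against parietal tissue 0 of 9 were called in KO, beside 0.236% of all genes, and 0 of 9 in WT, beside 0.171%, although 1 member in each (Gria4 in KO and Gria3 in WT) had an unadjusted p under 0.05, against 8.11% and 12.9% of all genes. Neither of the 2 overlapped, 1 of 9 each beside 5.52% of all genes in KO and 5.67% in WT. For parietal against occipital tissue 0 of 9 were called in KO, beside 0.351%, and 1 of 9 (Grik2) in WT, beside 0.451%. Gria1 and Grik2 had an unadjusted p under 0.05 in that KO comparison, against 7.04% of all genes, and all members overlapped there, beside 4.06% of all genes without overlap. In WT 4 of 9 members did not overlap between parietal and occipital tissue (Gria1, Gria4, Grik1 and Grik2), beside 6.41% of all genes.

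The kainate subunit gene Grik4 had its largest regional difference in KO. There its frontal values, given above, lay 0.35 below the occipital values of 8.64, 7.96, 8.27 and 7.95 (adjusted p = 0.0827), while in WT the difference was 0.04 (adjusted p = 0.848). One frontal KO array lay inside the occipital range. Without occipital KO 1, the highest array, the difference was -0.21 (adjusted p = 0.253), and without occipital KO 2 or 4 it was called (lowest adjusted p = 0.0325). The interaction of -0.39 did not pass (adjusted p = 0.2). None of the 9 members passed any of the 3 interaction tests, which called 0.416%, 0.01% and 0.01% of all genes for frontal against occipital, frontal against parietal and parietal against occipital. At an unadjusted p under 0.05, 1, 2 and 1 members did, against 20.1%, 8.13% and 3.93% of all genes.

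Across the 24 P0.5 arrays, Gria1, Grik1 and Grik2 varied together, with Pearson correlations of 0.848 between Gria1 and Grik2, 0.846 between Gria1 and Grik1 and 0.770 between Grik1 and Grik2. These are descriptions, since the arrays share region, genotype and normalization. The genes most like each member over these arrays were Syn2 (0.948) and Camk2d (0.930) for Gria1, Dcx (0.803) and Ttll5 (0.802) for Gria2, and Smarca1 (0.741) and Cdkn2aipnl (0.738) for Gria3. Gria4 was most like E130311K13Rik (0.795) and Zfp438 (0.774), Grik1 most like Cog7 (0.876) and Mir541 (0.870), and Grik2 most like Vat1l (0.964) and Zdhhc21 (0.888). For Grik3 they were Atp8a2 (0.872) and Pdzd2 (0.841), for Grik4 Kcnk1 (0.846) and Cpne2 (0.819), and for Grik5 Limk2 (0.898) and Mapk8ip3 (0.892).

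Proteins that bind, edit or place these receptors were examined as 5 lists. Over the P0.5 regions, 1 of 14 AMPA receptor auxiliary subunits rose in KO (Cacng3) and 1 fell (Cnih3), with a list median of 0.05 beside -0.01 for all genes. These counts stand beside the 4.71% of all genes called higher and the 2.75% called lower. Of 8 genes for AMPA receptor assembly and editing 0 were called. Of 13 measured genes for trafficking and clustering, 1 rose (Dlg4), and of the 2 kainate receptor auxiliary subunits 1 fell (Neto2). The single measured delta receptor gene, Grid1, was not called (0.08, adjusted p = 0.48).

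Neto2, a transmembrane protein that binds kainate receptors and slows their desensitization, was the partner with the smallest p. Its log2 signal over the regions was 10.83, 10.96, 10.90 and 10.82 in KO, against 11.20, 11.30, 11.38 and 11.21 in WT. The groups were well apart. The difference was -0.39 (SE 0.0487, limma adjusted p = 1.37e-04), 1.31-fold lower in KO, and it was called in all 8 fits that left out 1 set of arrays and after adjusting for the Y-linked level (-0.40, adjusted p = 1.80e-04).

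Neto2 was also lower in each region taken alone, by 0.45 in frontal, 0.35 in parietal and 0.38 in occipital tissue (adjusted p = 7.61e-04, 0.02 and 0.0124), with no overlap in any of them. The parietal call held in 5 of the 8 fits that left out 1 array, not without KO 1 or 4 or WT 3, and the occipital call in 4 of 8, not without KO 3 or 4 or WT 2 or 3. At E14.5 its difference was -1.10 (adjusted p = 0.85). Neto1, the other Neto protein, gave -0.00 over the regions (adjusted p = 0.985).

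Cacng3, a transmembrane AMPA receptor regulatory protein, was at 8.07, 7.84, 8.05 and 7.93 in KO and at 7.78, 7.79, 7.62 and 7.59 in WT. The groups did not overlap. Its rise of 0.28 (adjusted p = 0.0146) was called in 6 of 8 fits that left out 1 set of arrays, being lost without KO 1 or 3. It was not called when the 24 single arrays were fitted (adjusted p = 0.0587), nor in that fit with the number as a block (adjusted p = 0.0734), without the 2 most deviant arrays (0.23, adjusted p = 0.148) or after adjusting for the Y-linked level (0.18, adjusted p = 0.578). Cnih3, a cornichon protein that slows AMPA receptor gating, was at 8.76, 8.83, 8.88 and 8.70 in KO and at 9.01, 9.02, 9.34 and 9.05 in WT. WT 3 stood above the rest. It fell by 0.31 (adjusted p = 0.0132), a call lost without KO 4 alone of the 8 sets, and by 0.48 in frontal tissue alone (adjusted p = 0.00945), lost without frontal WT 3. Sex and genotype cannot be told apart in that frontal comparison.

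Dlg4, the postsynaptic scaffold known as PSD-95, was at 10.54, 10.42, 10.42 and 10.49 in KO and at 10.38, 10.31, 10.18 and 10.22 in WT. It rose by 0.19 (adjusted p = 0.0308) without overlap, and 4 of the 8 fits that left out 1 set of arrays called it, those without KO 2 or 3 or WT 1 or 2. Adarb1, the enzyme that edits the Gria2 transcript, gave -0.16 (adjusted p = 0.0538), and Abhd12, Cpt1c, Grip2, Cacng7 and Prrt1 lay between -0.19 and 0.19 without a call over the regions. In frontal tissue alone Abhd12 rose by 0.43 (adjusted p = 0.00595), called in all 8 fits that left out 1 array. Prrt1 fell there by 0.30 (adjusted p = 0.0256), and that call held in 4 of 8 fits, being lost without KO 1 or 4 or WT 3 or 4 (highest adjusted p = 0.111). Sex and genotype cannot be told apart in frontal tissue, and leaving out single arrays does not change this. The Abhd12 and Prrt1 calls there thus cannot be assigned to genotype alone.

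**Figure D5:**
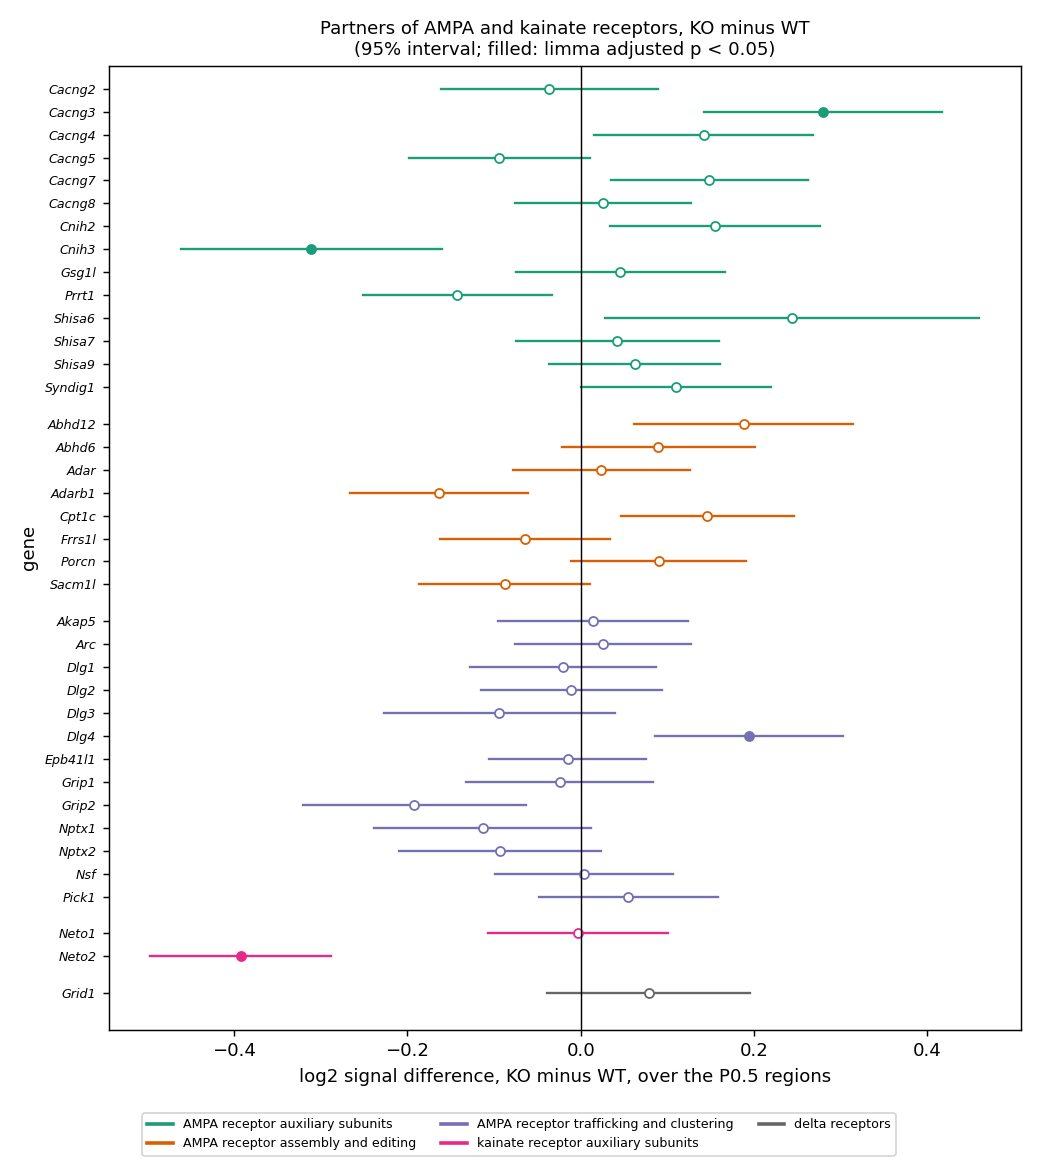
Difference in log2 signal over the P0.5 regions, KO minus WT, for the measured genes of the 5 partner lists, coloured by list. Lines are 95% intervals of the limma fit and filled points passed an adjusted p of 0.05. Filled points are Neto2 (-0.39), Cnih3 (-0.31), Dlg4 (0.19) and Cacng3 (0.28).

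Between frontal and occipital WT tissue, 2 of 14 auxiliary subunits were higher in frontal tissue (Gsg1l and Syndig1) and 1 was lower (Cacng2). Over all genes 6.03% were called in either direction and 3.77% were lower. Gsg1l, named only after its values were seen, was the 1 partner whose frontal to occipital difference also passed the interaction test (-0.26 in KO and 0.34 in WT, interaction -0.60, adjusted p = 0.0485), which 83 of all 19938 genes did. This call was close to the threshold, and no fits that left out arrays are given for it. A low Y-linked level was found on 4 of 4 frontal and 1 of 4 occipital KO arrays. With that level as a covariate 12 of all genes passed this interaction test, and with only the arrays compared 32 did. Syndig1, a synaptic protein that binds AMPA receptors, was 0.48 higher in frontal tissue (adjusted p = 0.00712) and 0.62 higher in KO frontal tissue (adjusted p = 7.45e-04). Dlg1, a scaffold of the same family as Dlg4, was 0.43 lower in frontal WT tissue (adjusted p = 0.00569) and 0.47 lower in KO (adjusted p = 0.00263). Both were called in all 8 fits that left out 1 array, in WT and in KO. Cacng2, the regulatory protein also called stargazin, and Grid1 were lower in frontal WT tissue (-0.37, adjusted p = 0.0283, and -0.48, adjusted p = 0.0161) with overlapping arrays, and each held in 5 of 8 such fits, not without frontal WT 4 or occipital WT 2 or 3, and not without the 2 most deviant arrays (adjusted p = 0.0996 and 0.0631). In KO their differences were 0.00 and -0.12, neither called.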

How the data were processed

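Values are log2 signals from the robust multi-array average (RMA) made by the authors with Affymetrix Expression Console 1.1, per the submitters' processing notes, and were used as deposited. Precision is limited by how many arrays a group has. The 2 stages were normalized separately and lie on different arrays, so they were fitted apart and no level was set across them. The E14.5 probe sets have names of the older 3' type of array, although the labels' protocol names a Gene 1.0 ST array. Of the probe sets, 34958 (E14.5) and 21789 (P0.5) carry a single gene symbol, 932 and 1621 carry several, and 9211 and 12147 carry none. Names came from GEO's platform annotation.

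Tests used limma 3.58.1 in R 4.3.3 (lmFit, then eBayes with an intensity trend), two-sided, with Benjamini-Hochberg adjustment over all genes and a threshold of 0.05. The regional comparisons and interactions come from 1 fit of the 24 P0.5 arrays. Scripts were tested on simulated data. Members and lists were chosen with earlier results of these data known. The genes named were the members, Tbr1, Xist and Y-linked genes. Of each partner list up to 4 were named by p in KO against WT over the regions. Up to 2 more were named by p in frontal against occipital WT. For likeness these were the 2 genes with the highest Pearson correlation over the 24 P0.5 arrays. At E14.5 the arrays sharing a number deviated together (correlations 0.125 to 0.445), as did parietal and occipital WT arrays (0.124 to 0.276). The number was fitted as a block only as an alternative, since the labels state no pairing. Parietal and occipital WT 2 differed in Y-linked level. Alternatives changed the probe set rule, the filter, the scaling, the trend, the array weights, the block, the arrays fitted and the Y-linked level.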

Additional observations from a re-analysis of the deposited data

Results flagged for a closer look

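Each of the 9 members was tested in each of the 6 P0.5 groups of 4 arrays, which makes 54 tests. In 3 of them the lowest array was far from the others by Dixon's test, beside the 1 in 20 that chance gives in independent tests. These tests are not independent, since they share the same 24 arrays. In frontal KO tissue array 2 was the lowest for Gria1, at 10.36, and for Grik5, at 10.10. In occipital WT tissue array 1 was the lowest for Gria4, at 10.39.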

How the results depend on the processing

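Each value here is the number of the 9 members called under a setting. In frontal KO against WT it was 3 with array weights and 3 without the 2 most deviant arrays (a choice made after seeing the data), against 0 as reported. In parietal KO against WT it was 2 with array weights, against 1. In occipital KO against WT it was 1 with array weights, with only the arrays compared and without the 2 most deviant arrays, against 0. Over the regions it was 1 with every probe set fitted, with array medians subtracted and without the trend, and 4 with array weights, against 2 from the set means. In fits of the 24 single arrays over the regions it was 0 with the Y-linked covariate and 3 without it. For frontal against occipital WT it was 1 with array weights, with only the arrays compared and without the 2 arrays, against 3. For parietal against occipital WT it was 3, 2 and 2 under those settings, against 1. With array weights it was 1 for frontal against parietal in WT and in KO, against 0, and 2 for frontal against occipital KO, against 1.

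Leaving out 1 array or set in turn gave 0 to 2 in frontal, 1 in parietal and 0 to 1 in occipital KO against WT, 1 to 4 over the regions, 1 to 3 for frontal and 0 to 2 for parietal against occipital WT, 1 to 2 for frontal against occipital KO, and 0 otherwise. With the number as a replicate block Grik1 lost its call for frontal against occipital WT (adjusted p = 0.0696). Over the regions the block was fitted on single arrays, where Cacng3 was not called (0.0734 with the block, 0.0587 without) and Gria3 was (0.0451 with, 0.0433 without), so these 2 calls changed with the fitting of single arrays and not with the block. No called value changed sign under the settings run. The genes called among all genes also moved. Array weights gave 2 at E14.5, against 0, in KO against WT 2606 frontal, 1241 parietal and 664 occipital, against 1499, 361 and 267, for frontal against parietal and parietal against occipital WT 134 and 452, against 34 and 90, for the KO comparisons frontal against occipital, frontal against parietal and parietal against occipital 1549, 730 and 191, against 643, 47 and 70, and for the interactions in that order 530, 47 and 17, against 83, 2 and 2. Only the arrays compared gave 687 for frontal KO against WT, 287 for frontal against occipital WT, against 1202, and 32, 0 and 4 for the interactions. The Y-linked covariate gave 824 over the regions, against 1891 in the same fit of single arrays and 1488 from the set means, 247 for frontal KO against WT, 247 for frontal against occipital KO, and 12 and 0 for the first interactions. Without the 2 most deviant arrays occipital KO against WT had 419, frontal and parietal against occipital WT 782 and 167, frontal against occipital KO 1025 and the interactions 46, 1 and 0. Frontal against parietal KO had 28 with medians subtracted, 24 without the trend and 72 with the block, and that interaction 0, 0 and 1. The cause was not tested, apart from fewer arrays where arrays were left out.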
